A study of Oncorhynchus mykiss with 69 samples.

Results

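The gill cell line at the second highest methylmercury concentration was compared with its untreated controls across all measured genes. The 2 libraries titled 0.5 and the 2 methylmercury controls of the gill line were taken by their titles, so 4 of the 69 libraries of the series form the comparison. The series exposed rainbow trout cell lines from gill, liver and gut to methylmercury or fluoxetine and measured RNA by paired-end sequencing. In the gill line, RTgill-W1, methylmercury was given for 24 h at 5 concentrations titled 0.001, 0.01, 0.1, 0.5 and 1, with 2 libraries at each and 2 controls. No unit is stated, and the deposited tables write the same concentrations as numbers 250 times larger. Control and treated cells alike were grown at 19 °C in medium with serum and antibiotics and were at passage 61 to 66. RTgill-W1 is an established line of cultured cells, so neither the mixed cell types of a gill nor separate fish are represented, and nothing in the labels says whether the libraries of a pair came from separate cultures.

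Methylmercury is an organic mercury compound that binds avidly to thiol and selenol groups, including those of cysteine in proteins and of glutathione. Keap1 senses such thiol-reactive compounds through its cysteines. Modified Keap1 no longer sends the transcription factor Nrf2 to degradation, and Nrf2 then switches on genes of glutathione synthesis, antioxidant defence and conjugate export. Damaged or misfolded proteins separately release Hsf1, which switches on genes of Hsp70 chaperones and their partners.

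The deposited gill table held 22579 genes, of which 76.4% carried only a locus number, and 5329 had a gene symbol. Only the mean of each pair of libraries could be recovered from the fold changes, so values of single libraries, and overlap between them, cannot be shown. The recovered means corresponded to 9.98 M (mega) estimated reads per library in the control, 10.53 M at 0.5 and 8.80 to 11.51 M at the other concentrations. Reads below are estimated reads per library, back-transformed from the mean log2 level of a pair, so they are not plain mean counts. Where 6 values are given, the order is always control, 0.001, 0.01, 0.1, 0.5 and 1. Of the markers listed for the labelled cell type, which were matched by symbol, few were found. The splicing regulator gene esrp1, found in epithelia, was the single epithelial marker measured of 10, at 5.5 reads in the control and 3.5 at 0.5. The ion cotransporter gene slc12a2 of ionocytes had 3840 and 2611 reads. Of the fibroblast markers, the collagen gene col1a2 had 46142 and 22566 reads and vim had 289.9 and 199.9. None of the listed leukocyte, erythroid or hepatocyte markers was found by symbol, and genes with a locus number only could not be matched. The endothelial receptor genes kdr and tie1 had 22.5 and 22.1 reads in the control and 6.9 and 13.9 at 0.5. The measured markers therefore do not place the line firmly as epithelial, and its label rests on the line's name.

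At 0.5 the median gene lay 0.46 log2 units below the control as deposited, against 0.05 below at 0.1 and 0.89 below at 1. All changes below are therefore given relative to the median gene of the same comparison, as log2 differences, and changes against the control as deposited are 0.46 lower. Each SE is for 2 libraries per group, from the variance fitted over all 12 methylmercury libraries of the line. It is not the spread seen within the compared pairs. In a bulk culture, fewer cells of a kind and less RNA per cell cannot be told apart. A gene was called when its adjusted p in the moderated test, adjusted by the Benjamini-Hochberg method over all 22579 genes, was under 0.05.

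At 0.5, 3716 genes were called, or 16.5% of those tested. Of these 2311 rose (10.2%) and 1405 fell (6.22%). Relative to the median gene the rises were larger than the falls, with a median called change of 1.52 log2 units upward and -0.80 downward. On this scale 793 genes rose by at least 2 log2 units while 103 fell by that much. Changes as deposited are 0.46 lower, so the order of the medians depends on the centring. Against the same control, 5 genes were called at 0.001 (0.0221%), 8 at 0.01 (0.0354%), 84 at 0.1 (0.372%) and 8266 at 1 (36.6%). None of the genes that rose lay below the control as deposited. Depth set what could be seen. Among genes with under 10 reads the median SE was 0.93 log2 units and 6.54% were called, and among genes with 1000 reads or more the SE was 0.10 and 30.3% were called. The count of calls fell to 1453 when every gene was given at least the median variance, and without centring 2008 genes were called higher and 8179 lower.

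**Figure D1:**
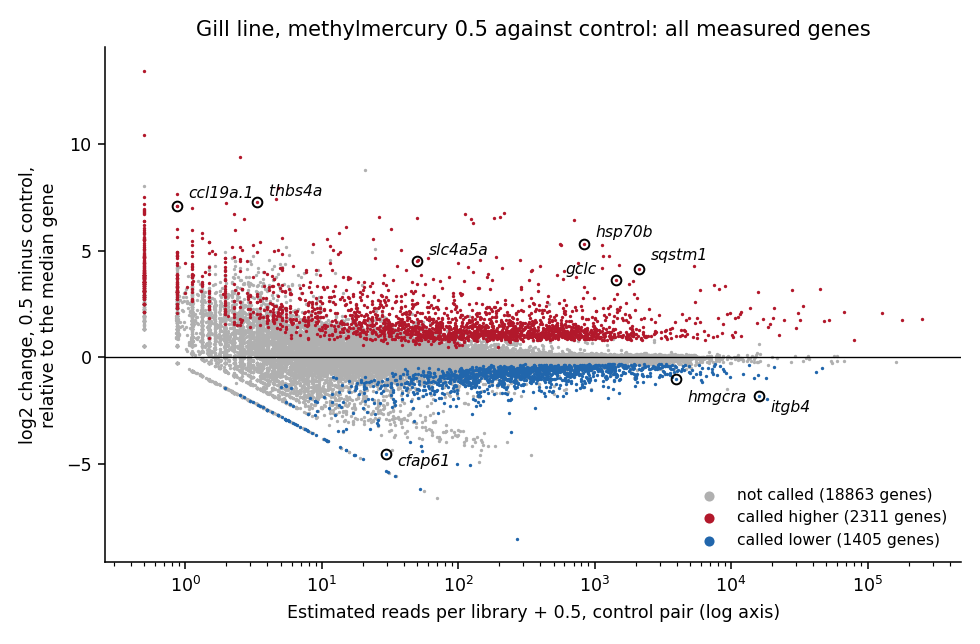
Each point is 1 of the 22579 genes, with estimated reads per library in the control plus 0.5 on a log x axis and the log2 change at 0.5 relative to the median gene on the y axis. The 2311 genes called higher (red) reach farther from 0 than the 1405 called lower (blue), and 9 genes named in the text are circled.

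Genes of the Nrf2 list rose at 0.5. Of 20 measured members 13 rose, none fell and 7 were not called, beside 10.2% higher and 6.22% lower over all genes, and the list's median was 1.84 log2 units against 0 for the median gene. Together the members held 0.676% of estimated reads in the control, 1.07% at 0.1 and 2.38% at 0.5. Among the regulators, keap1a, which encodes the Keap1 adaptor, had 723, 652, 688, 1854.5, 6929 and 12393 reads and rose by 3.79 ± 0.18 (adjusted p = 3.03e-05). The reads were flat up to 0.01 and higher at each concentration above it. The second Keap1 gene, keap1b, rose by 2.97 ± 0.12, from 1465 to 7916 reads, and the Nrf2 gene itself, nfe2l2a, rose by 1.21 ± 0.10. The small Maf gene maff, whose product pairs with Nrf2 on DNA, rose by 1.65 ± 0.09, whereas its relative mafk stood at -0.14 ± 0.12 and was not called.

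Glutathione synthesis, recycling and export were all represented among the genes that rose. The catalytic subunit gene of glutamate-cysteine ligase, gclc, the first enzyme of glutathione synthesis, had 1439, 1299, 1246, 3123, 12524 and 14081 reads and rose by 3.65 ± 0.21 (adjusted p = 6.2e-05). Its level was high at both 0.5 and 1. The glutathione synthetase gene gss rose by 2.21 ± 0.10 and the glutathione reductase gene gsr by 3.38 ± 0.13, the latter from 7544 to 54164 reads. The exporter gene abcc2, which pumps glutathione conjugates out of cells, had 1924, 1803, 1780, 4130.5, 16197 and 26371 reads and rose by 3.60 ± 0.14 (adjusted p = 1.73e-05). The gene pgd, whose enzyme yields NADPH in the pentose phosphate pathway, rose by 1.61 ± 0.09 from 15612 to 32892 reads. The peroxiredoxin gene prdx1 rose by 1.75 ± 0.15 and the heme oxygenase gene hmox1a by 2.28 ± 0.14, from 374 to 1253 reads.

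The autophagy receptor gene sqstm1, which also binds Keap1, changed most within the list, with 2105, 1843, 1805, 3267, 25625 and 68054 reads and a rise of 4.14 ± 0.12 (adjusted p = 7.05e-06). Other well-known targets of Nrf2 were not called. The quinone reductase gene nqo1 stood at -0.15 ± 0.20 with 142 reads in the control and 88.3 at 0.5, the sulfiredoxin gene srxn1 at 0.39 ± 0.27 and the catalase gene cat at 0.09 ± 0.14. The other uncalled members were mafk, given above, and me1, fth1b and mgst1.1, which had 2.0, 2.93 and 28.1 reads in the control.

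Several Hsp70 chaperone and co-chaperone genes rose. Of 18 heat shock genes 7 rose and 1 fell, or 44.4% called beside 16.5% over all genes, in a list narrowed after values were seen. The list's median of 0.82 fell to 0.18 when the 0.001 pair served as the control, while the count of 7 rises did not change. The inducible Hsp70 gene hsp70b had 829, 657, 659, 1815, 22679.9 and 70572 reads and rose by 5.31 ± 0.22 (adjusted p = 1.91e-05). Its close copy hsp70a had 5389, 4934, 4754, 9798, 72112 and 153265 reads and rose by 4.27 ± 0.18. Reads that match both copies can be shared between them by the quantification, so the split between hsp70a and hsp70b is uncertain. A further Hsp70 gene, hspa1b, had 0.62 reads in the control and 20.5 at 0.5, a change of 4.76 ± 0.91 with a counting interval of 3.33 to 11.23. Counting intervals here and below cover counting error only, not the spread between libraries. The constitutive Hsc70 gene hspa8b rose by 1.03 ± 0.09 from 10224 to 14458 reads.

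Some partners of Hsp70 and Hsp90 rose and others did not. The gene of bag3, a nucleotide exchange factor that hands Hsp70 clients to autophagy, had 339, 281, 297, 420.1, 3847 and 15017 reads and rose by 4.03 ± 0.17 (adjusted p = 1.91e-05). Related exchange factor genes went in different directions, with bag2 up by 1.91 ± 0.14 and bag1 at -0.44 ± 0.12 (adjusted p = 0.0452), a fall that was not called with the more abundant genes as the centre. The Hsp90 activator gene ahsa1a rose by 1.23 ± 0.10. Among 11 DnaJ genes, whose products deliver clients to Hsp70, 3 rose and 1 fell, with a median of 0.16. That is 36.4% called, beside 16.5% over all genes. The Hsp40 gene dnajb1b had 587, 505, 535, 818, 5124 and 18592 reads and rose by 3.66 ± 0.16. Its relatives dnajb2 and dnajc15 rose by 1.39 ± 0.15 and 1.17 ± 0.10, whereas dnajc10, a DnaJ protein of the endoplasmic reticulum, fell by 0.47 ± 0.09 relative to the median gene.

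**Figure D2:**
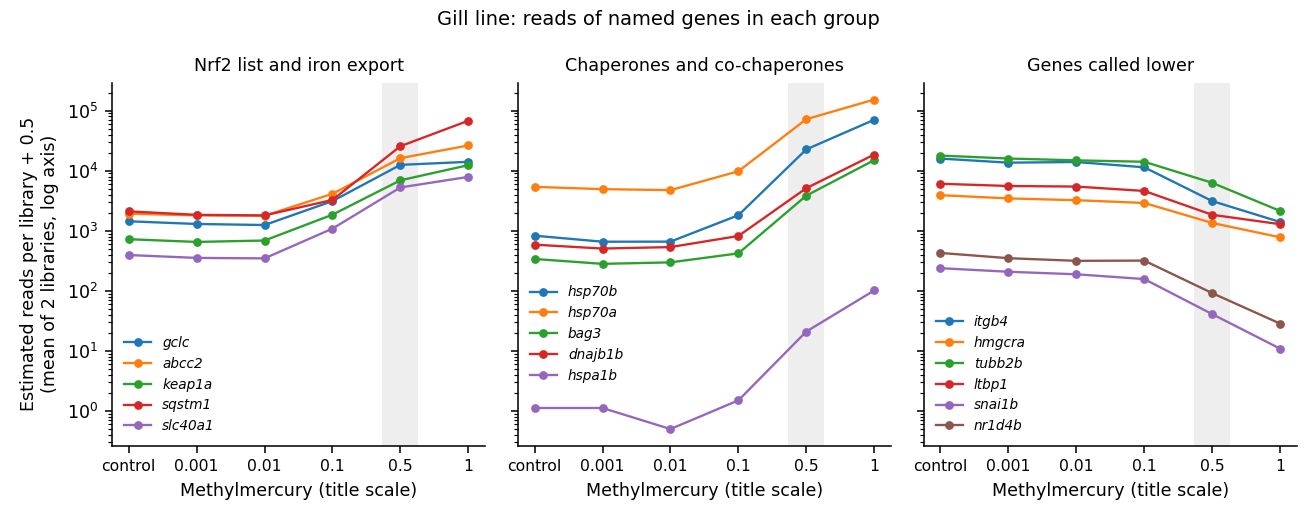
Estimated reads per library plus 0.5 (log y axis, from the mean log2 level of 2 libraries) of 16 named genes in the control and at 5 methylmercury concentrations, with 0.5 shaded. The genes on the left and in the middle lie near their control level at 0.01 and far above it at 0.5, and those on the right lie below it at 0.5.

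No listed gene of the unfolded protein response of the endoplasmic reticulum was called higher. Of 8 genes none rose and 2 fell, beside 10.2% higher and 6.22% lower over all genes. With so few genes, the absence of rises cannot show that the list differed from all genes. Those that fell were pdia7 by 0.75 ± 0.11 and txndc5 by 0.51 ± 0.09 relative to the median gene, and both encode disulfide isomerases. Neither fall was called with at least the median variance. The integrated stress response, which slows translation and switches on amino acid and redox genes, had 4 of 6 members up, 1 down and a median of 1.08. Calls made up 83.3% of these few genes, beside 16.5% over all genes. Its glutathione-degrading enzyme gene chac1 had 9781, 9136, 8925, 12857, 28281 and 40729.7 reads and rose by 2.06 ± 0.09 (adjusted p = 1.91e-05). The mitochondrial folate enzyme gene mthfd2 rose by 1.24 ± 0.10, and the transcription factor genes cebpb and atf5a by 1.09 ± 0.14 and 1.06 ± 0.13. The growth factor gene vegfab fell by 1.40 ± 0.38, a call that was lost against the 0.001 pair. Only chac1 kept its call when each gene was given at least the median variance.

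Protein degradation genes changed in both directions. Of 9 proteasome genes 3 rose and 1 fell, or 44.4% beside 16.5% over all genes, with a median of 0.01. Those that rose were psmf1, a proteasome inhibitor subunit, at 1.11 ± 0.11, the assembly chaperone gene psmd10 at 1.03 ± 0.09 and the regulatory particle gene psmd1 at 0.82 ± 0.09. The immunoproteasome gene psmb8a fell by 0.81 ± 0.12. No proteasome call was left with at least the median variance. Of 60 ubiquitin genes 8 rose and 5 fell, shares near the 10.2% and 6.22% over all genes. Among them were the muscle-atrophy ligase gene fbxo32 at 2.48 ± 0.31, the Arkadia ligase gene rnf111 at 2.16 ± 0.20, the deubiquitinase gene otud7a at 2.07 ± 0.11 and the ligase gene rnf150b at -1.43 ± 0.20. Of 14 autophagy genes 3 rose and none fell, or 21.4% beside 16.5% over all genes. Beside sqstm1 these were the protease gene atg4b, which processes LC3, at 1.61 ± 0.14, and the receptor gene tax1bp1b at 0.90 ± 0.09.

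Cytokine and NF-kappa-B genes rose in part. Of 42 members 13 rose and none fell, beside 10.2% higher and 6.22% lower over all genes. The list median of 0.58 became 0.19 against the 0.001 pair, where 13 also rose. The chemokine gene ccl19a.1 had 0.37, 2.1, 0.37, 2.37, 83.3 and 228 reads, a change of 7.13 ± 0.95 at 0.5 with a counting interval of 5.42 to 13.23. The NF-kappa-B subunit gene rel had 64.9, 58.0, 55.1, 82.1, 227 and 350.1 reads and rose by 2.33 ± 0.27 (adjusted p = 0.00121). The inhibitor genes nfkbiab and nfkbie rose by 1.73 ± 0.09 and 0.86 ± 0.14. Receptors and adaptors that rose were ifngr1 at 1.66 ± 0.26, il13ra1 at 1.53 ± 0.10, tnfrsf21 at 1.39 ± 0.10 and myd88 at 1.11 ± 0.12. The cytokine gene il11 rose by 1.41 ± 0.30 and the feedback inhibitor gene socs3 by 1.43 ± 0.18. For il17rc, with 0 reads in the control and 3 at 0.5, no size is given. No listed leukocyte marker was found by symbol, so the part of such cells in these values was not tested.

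Transport genes were among those that rose. Of 87 solute carrier genes 19 rose and 6 fell, with a median of 0.03, and of 14 ABC transporter genes 4 rose and none fell. That is 28.7% and 28.6% called, beside 16.5% over all genes. The iron exporter gene slc40a1, ferroportin, had 394, 353, 347, 1087, 5269 and 7902 reads and rose by 4.27 ± 0.35 (adjusted p = 0.000264). The bicarbonate cotransporter gene slc4a5a had 49.4, 51.4, 53.7, 199, 802 and 744 reads and rose by 4.54 ± 0.18. At 0.1 slc40a1 stood at 1.62 and slc4a5a at 2.16 log2 units against the control. The glucose-6-phosphate transporter gene slc37a4a rose by 3.17 ± 0.16 from 30.0 to 190 reads. For slc22a13a, with 0 reads in the control and 6.09 at 0.5, the rise was at least 1.67 log2 units, taking 3 reads per library as the floor. Of the ABC genes, abcb6a, a porphyrin transporter of mitochondria and other membranes, rose by 2.52 ± 0.12 from 358 to 1423 reads, and the cobalamin transporter gene abcd4 by 1.37 ± 0.10. The sterol transporter gene abcg5, with 0 reads in the control and 4.47 at 0.5, rose by at least 1.26. It had 1.79 reads at both 0.001 and 0.01, and its call was lost with either of those pairs as the control, which left 3 rises in the ABC list.

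Metal and selenium genes changed one by one. Of 14 metal genes 4 rose and 1 fell, or 35.7% beside 16.5% over all genes. The metallothionein gene mt2, whose product binds mercury and other metals, had 43.5, 40.2, 48.3, 58.4, 130.4 and 176 reads and rose by 2.11 ± 0.26 (adjusted p = 0.00156). Beside slc40a1, the iron importer gene slc11a2 rose by 1.14 ± 0.17 and aco1, the iron-regulatory aconitase, by 1.07 ± 0.09. The iron storage gene fth1b had 3 and 8 reads and was not called, and the transferrin receptor genes tfr1a and tfr1b stood at 0.10 and -0.37 without a call. Of 11 selenoprotein and selenium-incorporation genes the glutathione peroxidase gene gpx1 rose by 1.38 ± 0.16, and the deiodinase gene dio1 and selenoh, which encodes a nucleolar redox protein, fell by 1.07 ± 0.24 and 0.56 ± 0.12. The selenium list had 27.3% called. Among 27 glutathione transferase and cytochrome P450 genes 3 rose and 3 fell, or 22.2%. The glutathione transferase genes gsto1 and gstr rose by 2.78 ± 0.09 and 1.67 ± 0.09, gsto1 from 2048 to 9721 reads.

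In carbohydrate metabolism 4 of 14 glycolysis and pentose phosphate genes rose and none fell, or 28.6% beside 16.5% over all genes. Among them were pgd as above, the hexokinase gene hk1 at 1.40 ± 0.15 and the lactonase gene pgls at 0.99 ± 0.09. Glycolytic enzyme genes with many reads, pgam1b, pfkpa and eno1b, stood at -0.18, -0.18 and 0.18 and were not called. Neither these nor the tricarboxylic acid cycle, with 0 of 5 members called, had a further member called.

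Secreted and matrix genes split in direction. Of 48 matrix genes 6 rose and 6 fell, beside 10.2% higher and 6.22% lower over all genes, with a list median of 0.01. The thrombospondin gene thbs4a had 2.85, 3.47, 1, 23.5, 365 and 772 reads and changed by 7.30, with a counting interval of 6.33 to 8.91. Fibulin gene fbln1 and laminin gene lama2 rose by 1.15 ± 0.11 and 1.53 ± 0.18. The collagen I genes fell, col1a1b by 0.69 ± 0.09 and col1a2 by 0.50 ± 0.13, and with the more abundant genes as the centre the list had 2 falls in place of 6. With at least the median variance it had 3 rises and no falls, so the collagen calls were lost as well.

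Adhesion and cytoskeletal genes changed in both directions. Of 23 integrin and cadherin genes 5 fell and 1 rose, or 26.1% beside 16.5% over all genes. The integrin gene itgb4, whose product anchors epithelial cells to the basement membrane, had 15938, 13628, 13970.3, 11409.6, 3126 and 1399.5 reads and fell by 1.82 ± 0.10 relative to the median gene (adjusted p = 4.58e-05). The values at 0.5 and 1 lay far below those of the other groups. A second integrin gene, itga3b, rose by 2.66 ± 0.31 from 22.7 to 101 reads. The beta-tubulin gene tubb2b, a microtubule subunit, had 17880 reads in the control, 14102 at 0.1 and 6293 at 0.5, and fell by 0.97 ± 0.09. It was the single tubulin of 4 that was called, and the call was lost with at least the median variance. Of 30 actin cytoskeleton genes 3 rose and 2 fell, with a median of 0.02. The share called, 16.7%, was near the 16.5% over all genes. The tropomyosin gene tpm4a fell by 0.90 ± 0.10, while the cofilin gene cfl2 and the unconventional myosin gene myo9ab rose by 0.92 ± 0.10 and 1.18 ± 0.12. In the TGF-beta, Wnt and Notch list 5 of 25 rose and 2 fell, or 28.0% called. Its activin subunit gene inhbaa rose by 2.90 ± 0.44 from 91.2 to 474 reads and the Notch ligand genes dll4 and jag1b by 1.70 ± 0.22 and 1.6 ± 0.11.

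Genes of cholesterol synthesis fell. Of 19 measured members 8 fell and none rose, or 42.1% beside 16.5% over all genes, with a median of -0.37. HMG-CoA reductase gene hmgcra, the rate-limiting enzyme of the pathway, had 3915, 3462.5, 3229.5, 2907, 1349 and 779 reads and fell by 1.0 ± 0.12 (adjusted p = 0.00112). The squalene synthase gene fdft1 fell by 0.89 ± 0.10, the sterol dehydrogenase gene nsdhl by 0.85 ± 0.10, the lanosterol synthase gene lss by 0.84 ± 0.18 and hmgcs1, the enzyme before hmgcra, by 0.80 ± 0.12. The sterol-sensing regulator genes insig1 and srebf1 stood at -0.52 ± 0.15 and 0.04 ± 0.13 and were not called. Under the requirement of at least the median variance no member was called, so these calls rest on the variances recovered for these genes. Of 28 lipid genes 6 fell and 2 rose, or 28.6%. The enoyl-CoA hydratase gene ech1 fell by 1.38 ± 0.17, and the acyltransferase gene agpat4 and the receptor gene pparg rose by 1.52 ± 0.11 and 0.87 ± 0.14.

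Cilium and centrosome genes fell in 16 cases, in a list narrowed after values were seen. The list had 77 members, of which 2 rose, with a median of -0.24, and 5 of the falls held with at least the median variance. Calls made up 23.4% of the list beside 16.5% over all genes, of which 6.22% fell. Most of these genes had few reads. The axonemal gene cfap61 had 28.9, 34.6, 35.1, 27.4, 0.37 and 0.37 reads, a change of -4.56 with a counting interval of -10.65 to -2.79. The ciliary transition zone gene rpgrip1 had 25.1 reads in the control and 1.44 at 0.5, a change of -3.19 with an interval of -5.85 to -1.90. Among genes with more reads, the intraflagellar transport gene ift74 fell by 0.97 ± 0.16 from 372 to 131 reads. The basal body gene bbs1 fell by 1.28 ± 0.19.

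In the mitochondrial, nuclear transport and tRNA synthetase lists at most 1 gene each was called, beside 16.5% over all genes. Of 32 respiratory chain genes 1 was called, the succinate dehydrogenase assembly gene sdhaf3 at -0.74 ± 0.16, and the list median was -0.06. The abundant ATP synthase subunit gene atp5f1c stood at 0.04 ± 0.09. The mitochondrial ribosome list had 1 of 42 members called and a median of -0.08. Of 10 nuclear pore and transport genes, 12 mitochondrial import genes and 9 aminoacyl-tRNA synthetase genes none was called in any of the 3 lists. Splicing had 1 of 39 up and 3 down, or 10.3%, and the median was -0.08. Among 65 DNA replication and repair genes 6 fell and none rose, or 9.23%, with a median of -0.12. The mismatch repair gene msh3 stood at -1.24 ± 0.13 and the origin recognition gene orc5 at -0.80 ± 0.11. No call of this list was left with at least the median variance. In the cell cycle list 2 of 42 rose and 2 fell, or 9.52%. Its cyclin gene ccnd1 stood at 1.31 ± 0.33 and e2f2, a transcription factor of the G1/S step, at -0.86 ± 0.15. The core clock list had 2 of 13 up and 4 down, or 46.2%. Among these were the nuclear receptor genes nr1d2a at 1.37 ± 0.10 and nr1d4b at -1.69 ± 0.20.

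**Figure D3:**
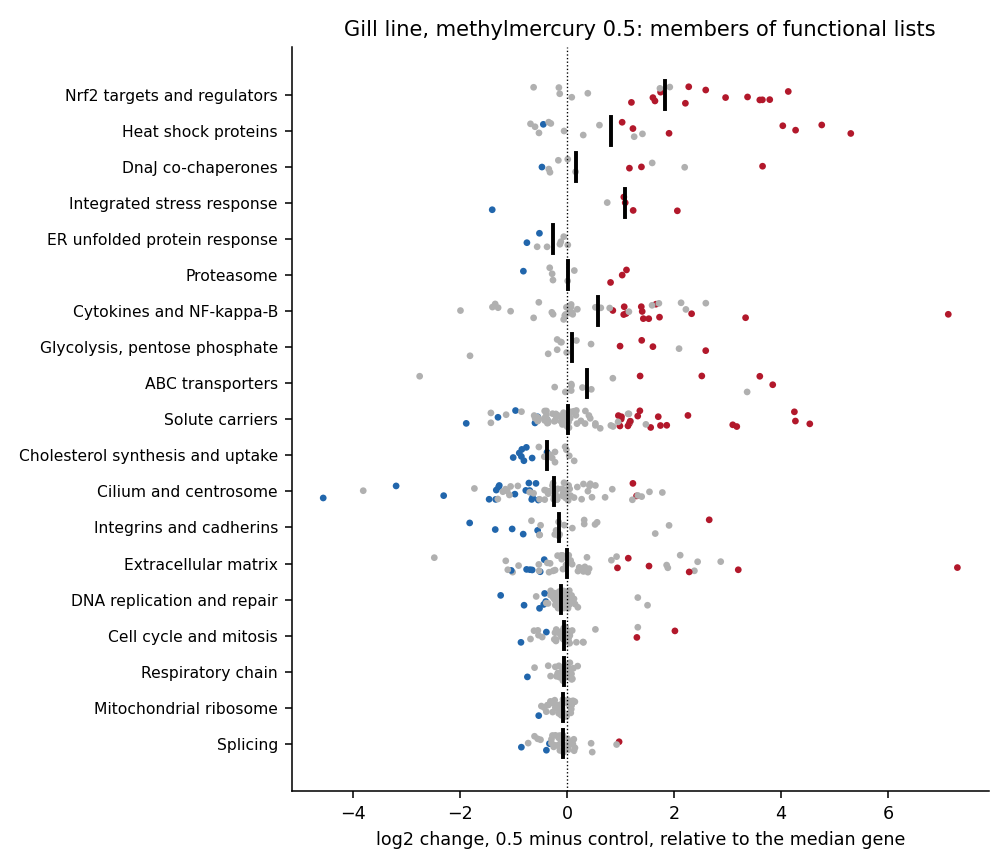
Each point is a measured gene of 19 functional lists, placed by its log2 change at 0.5 relative to the median gene, red where called higher, blue where called lower and grey where not called, with black bars at the list medians. The Nrf2 list lies farthest to the right with a median of 1.84, and the mitochondrial and splicing lists centre near 0.

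Several of the largest changes lay outside the functions described above and started from almost no reads. The proton pump subunit gene atp6v1b2, of the vacuolar ATPase, had 0.62, 1, 2.1, 5.48, 98.0 and 122 reads, a change of 6.99 with a counting interval of 5.65 to 13.46. It belongs to the lysosome list, where 4 of 24 members rose and 4 fell, or 33.3% beside 16.5% over all genes. With at least the median variance 2 rises and no falls of that list were left. The kinase gene stk31 had 2.2 reads in the control and 167 at 0.5 (6.48, interval 5.54 to 8.80), and epoa, the erythropoietin gene, had 0.82 and 43.4 (5.58, interval 4.08 to 9.04). The calcineurin catalytic subunit gene ppp3ca had 0.82 and 52.2 reads (5.85 ± 0.82, interval 4.34 to 9.30), and the calcium channel gene cacna1da 1.16 and 32.6 (4.85 ± 1.16, interval 3.64 to 8.63). The ankyrin gene ank2b, at 0 reads in the control and 22.4 at 0.5, rose by at least 3.47. Reads of ank2b were also 0 at 0.01 and were 3.47 at 0.001 and 0.37 at 0.1, and against the 0.001 pair the change was 2.92. With a firmer base, rab18a, a small GTPase of lipid droplets and the endoplasmic reticulum, had 600.4, 534, 558, 1422, 6919 and 8579 reads and rose by 4.06 ± 0.11 (adjusted p = 7.05e-06).

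Among the strongest falls were transcription factor and metabolic genes. The zinc finger gene snai1b, a repressor of epithelial adhesion genes, had 238, 207, 188, 157, 40.5 and 10.4 reads and fell by 2.01 ± 0.28 (adjusted p = 0.00255). The stem cell factor gene sall4 fell by 1.84 ± 0.35 from 54.9 to 10.2 reads, and the immediate early gene klf2a by 1.51 ± 0.26 from 1351 to 328. The steroid and fatty acid dehydrogenase gene hsd17b8 had 86.5, 69.9, 59.5, 55.2, 11.6 and 8.12 reads and fell by 2.31 ± 0.33. The globin gene cygb had 25.5 reads in the control and 1.79 at 0.5, a change of -2.97 with a counting interval of -5.07 to -1.70. Its reads at 0.1, 23.5, were near the control. Other genes of the lowest 12 were gkup, susd5, efcab1 and si:ch73-269m23.5, at -3.99, -1.73, -1.70 and -1.90.

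To place 0.5 between its neighbours, it was tested directly against 0.1 and 1 was tested against it, which leaves the control out but uses the 0.5 libraries in both. From 0.1 to 0.5, 2541 genes were called (11.3%), 1796 higher (7.95%) and 745 lower (3.3%). From 0.5 to 1, 3197 were called (14.2%), 1580 higher (7.0%) and 1617 lower (7.16%), and this count fell to 55 with at least the median variance. In the Nrf2 list all 13 genes that had risen against the control were also higher at 0.5 than at 0.1, with a list median of 1.38, and 11 members were higher again at 1, with a median of 0.60. In the heat shock list 7 rose in the first step and 6 in the second, with list medians of 0.05 and 0.67.

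The size of the second step differed from gene to gene. Relative to the median gene, gclc rose by 2.38 log2 units from 0.1 to 0.5 (adjusted p = 0.000698). At 1 it stood 0.58 higher, which was not called (adjusted p = 0.122). For slc4a5a the steps on that scale were 2.38 and 0.30, the second likewise not called (adjusted p = 0.332). Its reads were 802 at 0.5 and 744 at 1. By contrast bag3 rose by 3.57 and then by 2.37 (adjusted p = 9.4e-05 and 0.00113), and dnajb1b by 3.02 and 2.27. The steps of hsp70b were 4.02 and 2.05, and those of sqstm1 were 3.34 and 1.82. In the cytokine list 12 of 42 members rose up to 0.5, where 7.95% of all genes rose. Above it 10 rose and 1 fell, where 7.0% of all genes rose and 7.16% fell. Its member rel rose by 1.83 and then by 1.03.

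Counts of falls in the 2 steps were as follows. Of 65 DNA replication and repair genes 3 fell from 0.1 to 0.5, where 3.3% of all genes fell, and 14 from 0.5 to 1, where 7.16% fell. For msh3 the 2 steps were -1.04 and -1.15. Cell cycle genes gave 2 falls and then 9, and cilium genes 5 and then 17. Cholesterol genes gave 4 falls up to 0.5 and 2 above it, and hmgcra fell by 0.73 (adjusted p = 0.00666) and then stood at -0.38 (adjusted p = 0.073). Whether the counts of the 2 steps differ was not tested. The genes lowest at 1 against 0.5, c2cd5, cep78, zfyve9a, mmp11a and slc43a1a, all had 0 reads at 1 and 31.5 to 85.3 reads at 0.5. With 3 reads per library as the floor, their changes were at most -3.0 for slc43a1a and at most -4.43 for c2cd5. Among the called genes with a symbol that were highest in that step were sort1a, a sorting receptor, from 9.49 to 54.3 reads, and pard6ga, a cell polarity gene, from 29.0 to 142.

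**Figure D4:**
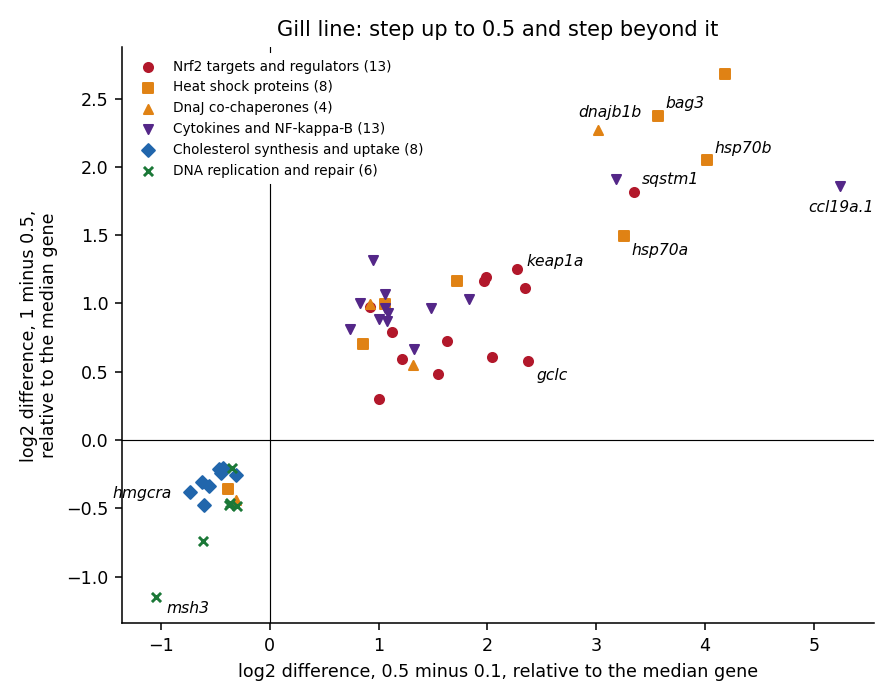
Each point is a gene called at 0.5 against the control in 6 lists, with the log2 difference between 0.5 and 0.1 on the x axis and between 1 and 0.5 on the y axis, both relative to the median gene and sharing the 0.5 libraries. Chaperone genes such as hsp70b (4.02 and 2.05) lie high on both axes, whereas gclc (2.38 and 0.58) lies low on the y axis.

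At the same title concentration the liver line had 2499 of 23203 genes called (10.8%) and the gut line 3519 of 21859 (16.1%), each against its own controls. Gill and liver changes differed in 502 of the 16083 genes measured in both (3.12%), with 319 higher (1.98%) and 183 lower (1.14%) in gill. Against gut, 861 of 15741 differed (5.47%), 490 higher (3.11%) and 371 lower (2.36%). Of the Nrf2 list 8 of 16 shared members were higher in gill than in gut and none lower, and against liver 3 of 17 were higher and 2 lower. The numbers of calls fell to 118 against liver and 273 against gut with at least the median variance.

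Chaperone and Nrf2 genes were among those that differed from gut. The rise of hsp70b was 5.31 ± 0.22 in gill and 1.76 ± 0.18 in gut, a difference of 3.55 (adjusted p = 7.78e-06), and the gene was not in the liver table. For hsp70a the rises were 4.27 ± 0.18 in gill and 2.24 ± 0.17 in gut, a difference of 2.04 (adjusted p = 0.000196), with the same doubt about the split between copies. In liver hsp70a stood at 3.81 ± 0.63, and its difference from gill was not called (adjusted p = 0.823). The further Hsp70 gene hspa1b stood at 4.76 in gill, 3.92 in liver and 4.58 in gut. Neither of its differences was called (adjusted p = 0.764 and 0.963), and its gill control had 0.62 reads. The autophagy receptor gene sqstm1 rose by 4.14 in gill, 1.84 in liver and 1.31 in gut, and gill differed from both (adjusted p = 0.000459 and 4.08e-07). For gclc the values were 3.65 in gill, 3.17 in liver and 1.51 in gut, and gill differed from gut alone (adjusted p = 0.392 and 0.000557). The gene rab18a stood at 4.06, 2.28 and 1.36, and slc40a1 at 4.27, 2.04 and 1.11, with each difference called. Keap1 copies differed in order. The keap1a change was larger in liver, 5.00 against 3.79 in gill (adjusted p = 0.0254), whereas that of keap1b was smaller there, 2.16 against 2.97 (adjusted p = 0.0158). Starting levels differed between lines, so a larger change is not a higher level. Reads of keap1a went from 57.1 to 1405 in liver and from 723 to 6929 in gill. Control reads of slc40a1 were 394 in gill, 2131 in liver and 1891 in gut.

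For chac1 and hmgcra no difference between gill and the other lines was called. The glutathione-degrading enzyme gene chac1 stood at 2.06 in gill, 2.44 in liver and 2.25 in gut, and hmgcra at -1.0, -0.82 and -0.75. A difference that misses the threshold does not show equality. The integrin gene itgb4 stood at -1.82 ± 0.10 in gill, -0.17 in liver and -0.28 in gut, and gill differed from both (adjusted p = 0.00113 and 0.00556). The latent TGF-beta binding gene ltbp1 fell by 1.19 ± 0.16 in gill, from 6070 to 1846 reads, and stood at 1.12 in liver, a difference of -2.30 (adjusted p = 0.0243). The lactonase gene pgls was higher by 0.99 in gill and stood at -0.13 in liver and -0.46 in gut (adjusted p = 0.0012 and 1.17e-05).

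**Figure D5:**
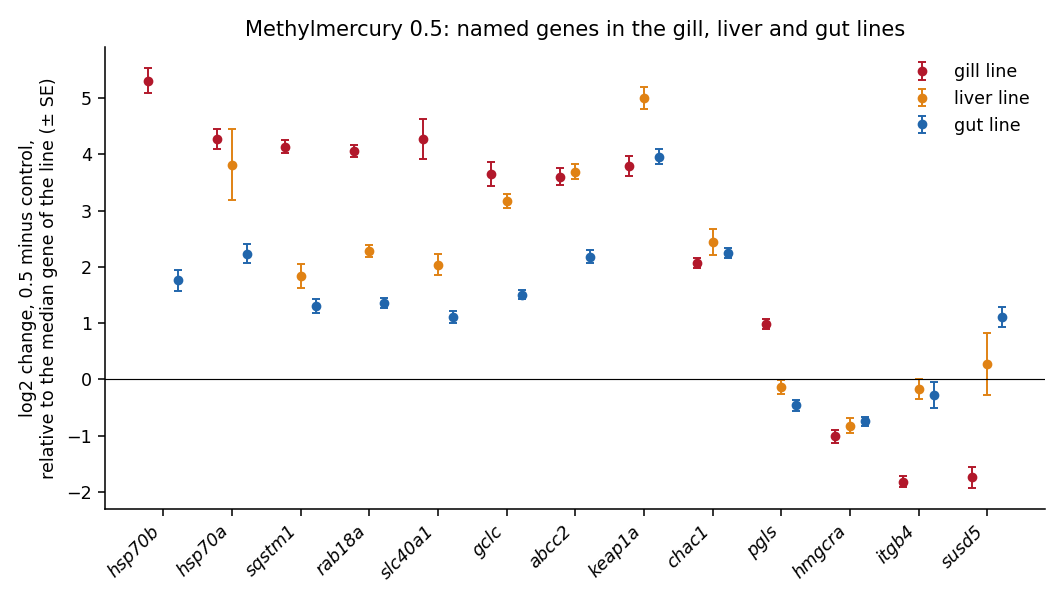
Log2 change at 0.5 against the line's own control, relative to the line's median gene, for 13 named genes in the gill, liver and gut lines. Bars are 1 SE for 2 libraries per group, from the variance fitted over all methylmercury libraries of the line. Gill lies highest for sqstm1 (4.14), rab18a (4.06) and slc40a1 (4.27) and lowest for itgb4 (-1.82), while chac1 and hmgcra lie close together.

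The authors also deposited a benchmark dose for 4821 of the gill genes, an estimate from dose-response curves of where a gene starts to depart from the untreated level. In the authors' deposited table, 814 of the 2311 genes that rose at 0.5 had such a dose, with a median of 0.0566 on the title scale, and 1186 of the 1405 that fell, with a median of 0.0506, against 0.0924 over all genes with a dose. Of the Nrf2 list 11 of 20 members had one in the authors' deposited table, with a median of 0.0132, and of the heat shock list 8 of 18, with a median of 0.0665. For hsp70b the authors' deposited table gave 0.0155, with bounds of 0.00658 and 0.0246. These doses come from curves over the same libraries and are not independent of the changes at 0.5. They refer to expression as deposited, whereas rises and falls here are relative to the median gene, which lay 0.46 log2 units below the control. The shares of rises and falls with a dose are therefore not on a common scale.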

How the data were processed

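Reads were filtered with fastp and quantified with Salmon, per the submitters' processing notes; versions, genome build and annotation are not given in the sources used here. The authors deposited, per the file headers, log2 fold changes of each concentration against the control and mean log2 expression, an F statistic (a score) with its p-value and adjusted p-value, and, in a second table, benchmark doses. Among 12 deposited files 4 were used. None of those holds counts per library, so no count model was fitted.

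Group means, the moderated residual variance and its 7.11 degrees of freedom were recovered for each gene from the deposited log2 fold changes, mean, F and p. Applying the Benjamini-Hochberg adjustment to the authors' p-values returned their adjusted values to within 1.25e-15. Estimated reads were back-transformed with an offset of 0.5, and 72.3% of values under 10 reads lay within 0.05 of a value that pairs of whole counts can give. The variance is shared by all 12 gill methylmercury libraries, so p-values measure the spread between these libraries, which may be technical. Differences were centred on the median gene and tested two-sided with the moderated statistic of limma, adjusted over all genes (Python 3.11.15, numpy 2.4.6, scipy 1.17.1). Differences between lines used summed variances. The recovery was tested on simulated data with limma 3.58.1 in R 4.3.3. All gene IDs matched the reference table of symbols.

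Functional lists, 45 in number, were matched by symbol and held 5.21% of the genes, so genes with a locus number only belong to none. The members and lists were chosen with earlier results of these data known. The tubulin, ribosome biogenesis, cilium and heat shock patterns were narrowed after values were seen. Named genes were the 12 highest and 12 lowest called genes with a symbol and over 20 estimated reads in the higher group, up to 4 called members per list, and the 5 highest and lowest in each other comparison. Members of the Nrf2, heat shock, cytokine, cholesterol, cilium, metal, matrix, integrated stress and glycolysis lists beyond these were named after their values were seen. Bounds with 3 reads per library and the 95% exact binomial intervals cover counting error only. The intervals take the rounded estimated reads of a pair as if they were counts. Some results are not reported here. Many trout genes exist as near-identical copies, between which the authors' quantification may split reads.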

Additional observations from a re-analysis of the deposited data

Results flagged for a closer look

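Differences between cell lines in the change at 0.5 were what drew attention, each tested as gill minus the other line with adjustment over all shared genes, on the log2 scale relative to each line's median gene. In all 502 genes differed from liver and 861 from gut. Values below are for genes named by rule or as functional list members.

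Higher in gill than in gut were the changes of hsp70b by 3.55, hsp70a by 2.04, sqstm1 by 2.83, gclc by 2.15, abcc2 by 1.42, thbs4a by 4.79, adgb by 5.05 and si:ch211-80h18.1 by 2.74. The gut control had 0.37 reads of both thbs4a and si:ch211-80h18.1. The gill change of adgb, 2.12, was not called (adjusted p = 0.128), and in gut adgb went from 9.95 to 0.62 reads. Higher in gill than in liver were sqstm1 by 2.30, ccl19a.1 by 4.86 and atp6v1b2 by 4.61, of which ccl19a.1 and atp6v1b2 had under 1 read in the gill control.

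For a further set a group stood at 0 reads in one of the lines, so the size depends on the offset of 0.5 and is no bound. With 0 reads in the gill control these were ank2b at 5.73 against liver, slc35d2 at 5.90 against liver and 4.66 against gut, and si:ch211-217a12.1 at 5.17 and 5.72. The gill reads of si:ch211-217a12.1 were 19.4, 15.9 and 14.5 at 0.001, 0.01 and 0.1 and 8.51 at 0.5, so its value rests on the control pair at 0. With 0 reads at 0.5 in gut they were elmo2 at 5.56, lpin1 at 4.98, btc at 5.04 and slc37a4a at 4.84. The liver line had 0 reads of si:ch1073-184j22.2 at 0.5, giving 6.13, and the gut control had 0 of dll4, giving -3.28. Against liver, btc differed by 4.61, slc37a4a by 1.46 and lpin1 by -1.48.

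Lower in gill than in liver were keap1a by -1.21, itgb4 by -1.65, ltbp1 by -2.30, nr1d4b by -1.43, hsd17b8 by -2.24, gas1a by -2.33, atp1a3a by -1.94 and si:ch211-252f13.5 by -2.66. Lower in gill than in gut were itgb4 by -1.54, susd5 by -2.84, sall4 by -1.69, wnt1 by -2.85, cfap53 by -3.54, cacna1fb by -3.45 and myrip by -3.77. Adjusted p-values of these moderated tests ran up to 0.0481.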

How the results depend on the processing

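No paired analysis was possible because the deposited tables hold group values and no single libraries; leaving out each replicate was not run for the same reason. Of the named genes' values under the alternatives, 1306 kept their side of the threshold, 147 lost a call and 33 gained one. No gene called as reported changed direction, and direction was not followed for genes not called as reported.

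At 0.5 against the control, no centring gave 10187 calls with 8179 lower, and at least the median variance gave 1453 (1246 higher, 207 lower), all shared with the 3716 reported. A change of at least 1 log2 unit as well left 2415, with 465 lower. The control, 0.001 and 0.01 pairs as reference gave 2197 lower, and the authors' F-test over all concentrations 12826, with 10411 lower. With the 0.001 pair as reference the list medians became 0.18 for heat shock, 0.19 for cytokines, -0.53 for cholesterol and 0.73 for ABC transporters.

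For 1 against 0.5, no centring gave 8079 (854 higher, 7225 lower), centring on the more abundant genes 1026 lower, the median variance 55 (27 higher, 28 lower) and the size threshold 1155 (753 higher, 402 lower). For 0.5 against 0.1 the same settings gave 8622 with 7060 lower without centring, 573 (522 higher, 51 lower) with the median variance and 1441 with 220 lower at the size threshold. With the median variance, 118 genes (98 higher, 20 lower) differed from liver and 273 (161 higher, 112 lower) from gut. Except for the arithmetic of fewer or more genes past a threshold, the cause was not tested. Depth limits genes under 10 reads, whose median SE was 0.93 log2 units.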
